A study of Homo sapiens with 6 samples.

Results

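The genes described here are 40 genes of the NRF2 programme and of redox and xenobiotic defence, taken by symbol from a list and found by gene identifier among the 57905 identifiers of the deposited table. It holds NRF2 (NFE2L2) and its inhibitor KEAP1, 4 genes of glutathione synthesis and recycling, 6 of glutathione use, 8 of the thioredoxin and peroxiredoxin system, 9 carbonyl, quinone and xenobiotic enzymes, 5 of NADPH supply, 3 of iron and heme, and 3 of superoxide and hydrogen peroxide removal. All 40 had an identifier. PRDX2 lay under the filter of a mean of 1 FPKM (fragments scaled for gene length and library total), so 39 were tested.

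A549 is an established human lung adenocarcinoma line. Cells received miR-19a or the negative control miR-NC at 25 nM by lipid transfection and were harvested at 24 h, with 3 libraries of poly(A)-selected RNA in each group. Both groups therefore share the cell line, the transfection reagent and the oligonucleotide dose, and no untransfected cells were analysed here. The labels do not say that the 3 samples of a group were grown or transfected apart, so the p-values describe how these 6 samples scatter, and that scatter may be technical.

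NRF2 is a transcription factor that KEAP1 holds back by handing it to the CUL3 ubiquitin ligase for destruction. When electrophiles or oxidants modify KEAP1, or when KEAP1 is mutated, NRF2 accumulates, pairs with a small MAF protein and binds antioxidant response elements beside genes for glutathione, thioredoxin, NADPH and detoxifying enzymes. BACH1 pairs with the same MAF proteins and represses some of these genes, HMOX1 above all. A549 cells carry mutant KEAP1 and are known for constantly active NRF2, and both groups come from this background.

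The miR-19a sequence is shown because its seed defines the sites searched for in the 3′ UTRs of these genes. The mature strand is given by RefSeq on GRCh38.p14 at chr13:91350939-91350961, plus strand. Capitals mark the seed, bases 2 to 8.
miR-19a-3p: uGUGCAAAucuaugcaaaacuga

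A site of 7 bases or more was present in the 3′ UTR of 5 of the 40 genes, and in 1969 of 10551 tested genes with an annotated UTR (18.7%). An 8mer pairs with the whole seed and is followed by A, a 7mer-m8 pairs with the whole seed alone, and a 7mer-A1 pairs with bases 2 to 7 and is followed by A. The 5 genes were SOD2, SRXN1, IDH1, CYP4F11 and GSTM3, the first 3 of which had the largest rises of the list. SOD2 held an 8mer, the only 8mer among the 40 genes, and its window is not shown. This site lies at bases 7568 to 7575 of an annotated 3′ UTR of 13436 bases. Whether the SOD2 transcripts of these cells reach that far was not measured. The windows of the other 4 are shown because they hold the remaining sites. They come from GENCODE v29 transcripts on GRCh38, each read 5′ to 3′ along its gene, with the site in capitals. SRXN1 carried a 7mer-m8 (minus strand, chr20:648607-648613), IDH1 a 7mer-A1 (minus strand, chr2:208236604-208236610), CYP4F11 a 7mer-m8 (minus strand, chr19:15912406-15912412) and GSTM3 a 7mer-A1 (minus strand, chr1:109736790-109736796).
SRXN1: ggtgcattctcTTTGCACctggcgagagg
IDH1: gtgcattaaacTTGCACAtgactggaacg
CYP4F11: atcgtattgccTTTGCACctttatcaaat
GSTM3: aaaaaacgagaTTGCACAgttggagagag

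The library totals were 15699037 to 17957932 counts. Counts of 2 libraries of the same group differed by a chi-square of 1.6 to 4.22 per gene, above the value of about 1 that sampling alone gives, and libraries of different groups by 27.3 to 30.9, so no library was a copy of another. Of 6 epithelial markers, 5 were above the filter, with a summed level of 1722 to 1755 FPKM in the controls and 1849 to 1930 with miR-19a (3 rose, 2 fell), while EPCAM reached at most 0.93 FPKM. Of 7 alveolar type II markers only ABCA3 passed the filter. The others reached at most 0.5 FPKM. Of 6 fibroblast markers only COL1A1 passed the filter. It rose by 1.52 on the log2 scale (SE 0.095, edgeR adjusted p = 2.6e-22), and the summed level of the list was 1.69 to 2.0 FPKM in the controls and 2.97 to 3.61 with miR-19a. The part of these markers in the results below was not tested. The 4 leukocyte and endothelial markers found in the table summed to at most 0.24 FPKM, with CD3E at 0 in every library. In bulk RNA, fewer cells of a type and less RNA per cell cannot be told apart.

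With miR-19a, the redox programme did not move as a block. Of the 39 genes tested, 14 rose, 11 fell and 14 did not pass (edgeR quasi-likelihood test, Benjamini-Hochberg adjusted p under 0.05). The background was high: 48.4% of all 12452 genes tested passed, 24.9% higher and 23.5% lower, so calls by themselves were common in this comparison. Among genes with a mean of at least 5 FPKM, where 38 of the 40 lie, the share was 56.1%. The median log2 fold change of the 39 was 0.03, and the median of its absolute value was 0.18, the same as the 0.18 of all genes tested. The CPM values (counts scaled to a common library size with TMM factors) of the groups did not overlap for 28 of the 39, against 54.0% of all genes tested. Of the genes that passed, 6 also changed by at least 0.4 on the log2 scale, 3 up (IDH1, SOD2 and SRXN1) and 3 down (HMOX1, MGST1 and AKR1B1). Both conditions were met by 17.1% of all genes tested.

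**Figure D1:**
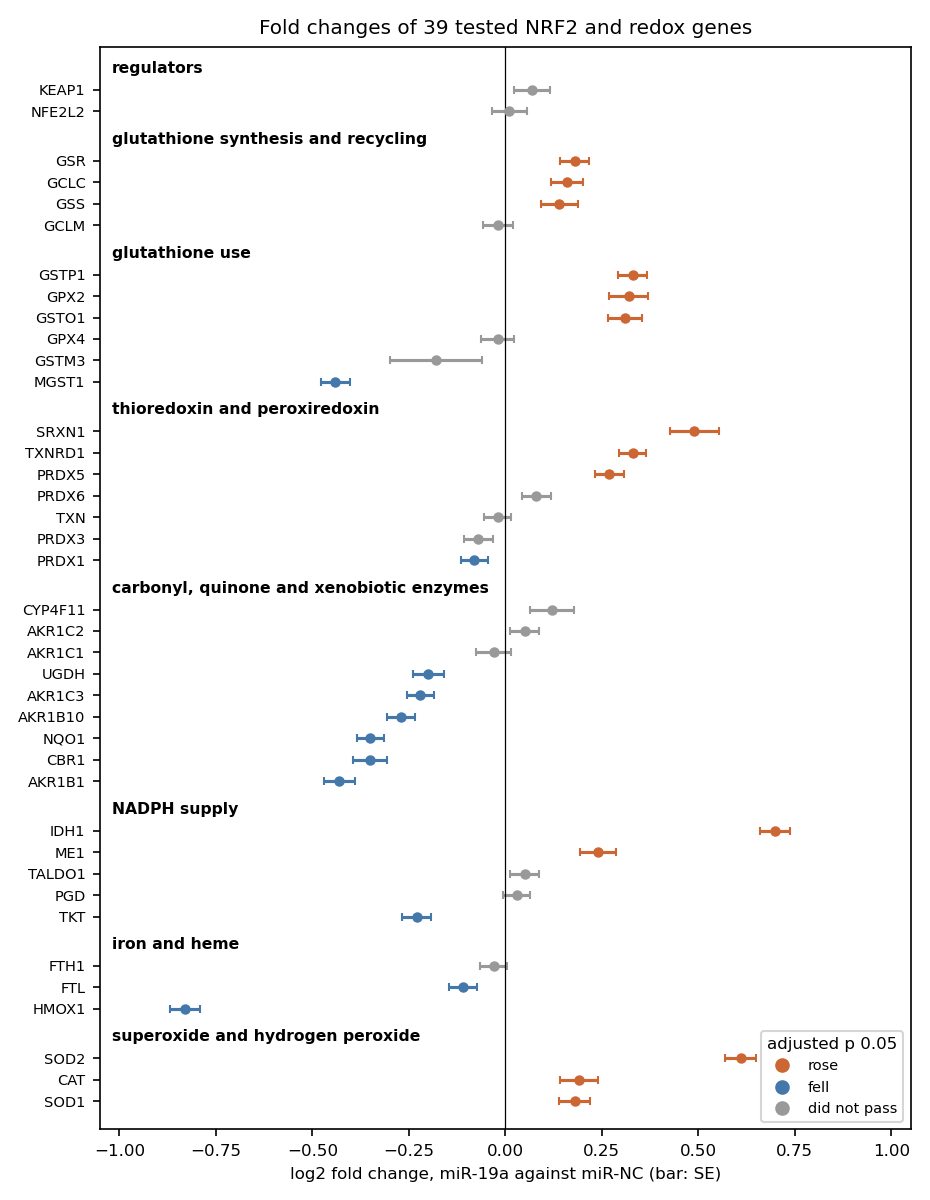
Log2 fold change (miR-19a minus miR-NC) of the 39 tested genes on the horizontal axis, by role, with the standard error as a bar. IDH1 (0.70), SOD2 (0.61) and SRXN1 (0.49) lie farthest to the right and HMOX1 (-0.83) farthest to the left. No gene of the group of carbonyl, quinone and xenobiotic enzymes is among those that rose.

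The regulators themselves did not pass the test. NFE2L2, which encodes NRF2, stood at 102.5, 105.3 and 107.0 CPM in control replicates 1 to 3 and at 106.1, 104.9 and 106.0 CPM with miR-19a. The groups overlapped, and the log2 fold change was 0.01 (SE 0.045, adjusted p = 0.872, approximate 95% interval -0.08 to 0.1). Its annotated span overlaps that of AGPS, a gene on the opposite strand whose count was 113.6% of that of NFE2L2. The strand setting of the counting is unknown, and reads in the shared stretch were not measured. KEAP1, the inhibitor, stood at 87.53, 89.39 and 87.63 CPM in the controls and at 93.25, 88.77 and 95.52 CPM with miR-19a. These groups also overlapped (log2 fold change 0.07, SE 0.047, adjusted p = 0.228, interval -0.02 to 0.16). The ratio of NFE2L2 to KEAP1 in FPKM was 0.758 ± 0.017 (SD, n = 3) in the controls and 0.728 ± 0.0229 with miR-19a (exact two-sided permutation test, p = 0.3, 0.4 adjusted over 4 ratios, smallest possible p 0.1).

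Transcripts of other NRF2 control genes changed in both directions. Of 15 other genes of NRF2 control, 14 were tested, and 5 rose, 3 fell and 6 did not pass (median log2 fold change -0.0). Over all genes tested, 24.9% rose and 23.5% fell. MAFK, a small MAF partner of both NRF2 and BACH1, stood at 116.7, 130.2 and 119.3 CPM in the controls and at 252.1, 249.1 and 262.3 CPM with miR-19a. It rose 2.08-fold (log2 fold change 1.06, SE 0.042, adjusted p = 1.4e-32), and every miR-19a library was above every control. BACH1, the repressor, rose from 21.51, 24.99 and 22.19 CPM to 35.62, 33.17 and 31.69 CPM (log2 fold change 0.55, SE 0.073, adjusted p = 2.4e-09). The other small MAF genes went down, MAFF by 0.35 (SE 0.094, adjusted p = 0.00155) and MAFG by 0.13 (SE 0.042, adjusted p = 0.00807) on the log2 scale. For MAFG the call was lost without miR-19a replicate 2 (adjusted p = 0.0522). BTRC, a ubiquitin ligase subunit that also targets NRF2, rose by 0.31 (SE 0.065). CUL3, the scaffold of the ligase that KEAP1 serves, fell by 0.17 (SE 0.046, adjusted p = 0.00129) and holds an 8mer.

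**Figure D2:**
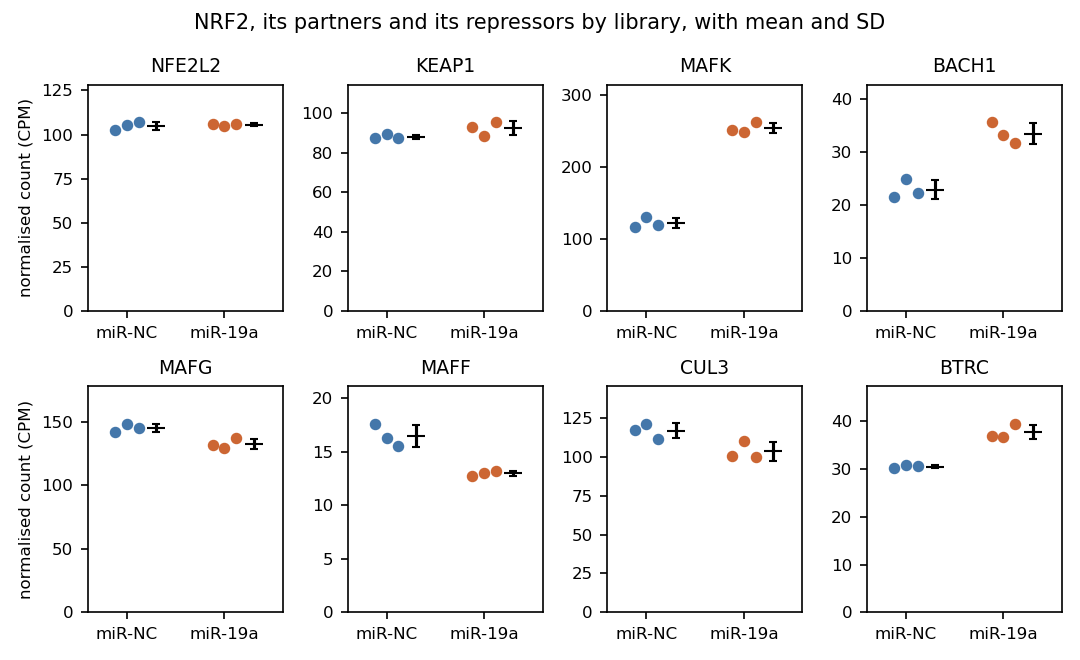
CPM of NFE2L2, KEAP1 and 6 other genes of NRF2 control in each of the 6 libraries, as points, with the mean and SD of each group as a bar beside them. The groups overlap for NFE2L2 and KEAP1 and are separate for MAFK, whose control libraries lie at 116.7 to 130.2 CPM and whose miR-19a libraries lie at 249.1 to 262.3 CPM.

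Changes in glutathione synthesis and recycling were small. Of the 4 genes, 3 rose and GCLM did not pass, with a median log2 fold change of 0.15, where 24.9% of all genes tested rose. GCLC, the catalytic subunit of the rate-limiting ligase of glutathione synthesis, stood at 177.5 ± 6.28 CPM (SD, n = 3) in the controls and at 198.1 ± 7.62 CPM with miR-19a, a rise of 0.16 on the log2 scale (SE 0.041, adjusted p = 0.00083). GCLM, its modifier subunit and a commonly used NRF2 target, stood at 211.3, 223.8 and 220.7 CPM in the controls and at 214.9, 219.0 and 214.3 CPM with miR-19a. The groups overlapped (log2 fold change -0.02, SE 0.039, adjusted p = 0.752, interval -0.09 to 0.06). The ratio of GCLC to GCLM in FPKM was 0.516 ± 0.0263 in the controls and 0.582 ± 0.0254 with miR-19a. The 3 ratios of each group did not overlap, but 3 against 3 cannot give a p below 0.1 (exact permutation p = 0.1, adjusted 0.2). GSS, glutathione synthetase, rose by 0.14 (SE 0.048, adjusted p = 0.0158). Its call was lost without control replicate 3 (adjusted p = 0.115), miR-19a replicate 1 (0.0581) or miR-19a replicate 2 (0.0755), and with limma on log2(FPKM + 1) (0.0662). GSR, which reduces oxidised glutathione, rose by 0.18 (SE 0.037, adjusted p = 4.1e-05).

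Among the 6 genes of glutathione use, 3 rose, 1 fell and 2 did not pass (median 0.14), beside 24.9% higher and 23.5% lower over all genes tested. GSTP1, the most abundant glutathione transferase of the list, rose from 544.0 ± 27.7 to 685.0 ± 27.4 CPM (log2 fold change 0.33, SE 0.038, adjusted p = 1.9e-11). GPX2, a selenium-dependent glutathione peroxidase, rose by 0.32 (SE 0.05, adjusted p = 1.1e-07), with 30.5% as many counts in CHURC1, an overlapping gene on the opposite strand. GSTO1, an omega-class transferase, rose by 0.31 (SE 0.043, adjusted p = 1.2e-08). MGST1, a membrane-bound glutathione transferase of the endoplasmic reticulum, went the other way. It stood at 429.6, 417.9 and 419.0 CPM in the controls and at 309.7, 314.2 and 311.3 CPM with miR-19a. MGST1 (chr12:16347142-16609259, plus strand) was 26.2% lower, a fall of 0.44 on the log2 scale (SE 0.037, adjusted p = 1.7e-16), with no overlap between groups. GPX4, which reduces lipid hydroperoxides, was at -0.02 (adjusted p = 0.771) on the log2 scale and GSTM3 at -0.18 (SE 0.12, adjusted p = 0.224), the latter with a level of only 9.08 ± 0.82 CPM in the controls.

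In the thioredoxin and peroxiredoxin system 3 genes rose, 1 fell, 3 did not pass and PRDX2 was not tested (median of the 7 tested 0.08). The shares over all genes tested were 24.9% higher and 23.5% lower. TXNRD1, the selenoenzyme that reduces thioredoxin, stood at 2103, 2119 and 2162 CPM in the controls and at 2702, 2725 and 2587 CPM with miR-19a. All miR-19a libraries were higher (1.26-fold, log2 fold change 0.33, SE 0.035, adjusted p = 2.8e-12). SRXN1 (chr20:646615-653370, minus strand), sulfiredoxin, which repairs overoxidised peroxiredoxins, stood at 39.94, 35.54 and 45.09 CPM in the controls and at 58.0, 53.31 and 57.61 CPM with miR-19a. SRXN1 rose 1.4-fold (log2 fold change 0.49, SE 0.063, adjusted p = 8.8e-10), again with separate groups. TXN, the substrate of TXNRD1, was at -0.02 on the log2 scale (SE 0.036, adjusted p = 0.637). Of the peroxiredoxins, PRDX5 rose by 0.27 (SE 0.038, adjusted p = 1.5e-08). PRDX1, the most abundant, fell by 0.08 (SE 0.036, adjusted p = 0.0476), a call lost in 8 of 15 alternatives, among them each removal of a single library except control replicate 2, where adjusted p lay between 0.0754 and 0.225. PRDX3, the mitochondrial form, had -0.07 (adjusted p = 0.137) and PRDX6 had 0.08 (adjusted p = 0.0617). Without control replicate 2 PRDX3 passed (adjusted p = 0.0305), and without miR-19a replicate 3 PRDX6 passed (0.0298). PRDX2 had 38 counts over all 6 libraries and overlaps HOOK2, which had 1341 counts, so its level is uncertain.

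None of the 9 genes grouped as carbonyl, quinone and xenobiotic enzymes rose. Of the 9, 6 fell and 3 did not pass, and the median log2 fold change was -0.22. Over all genes tested, 23.5% fell. Of the glutathione transferases, grouped under glutathione use, GSTP1 and GSTO1 rose, MGST1 fell and GSTM3 did not pass. NQO1, the quinone reductase most used as a readout of NRF2, stood at 1852, 1835 and 1825 CPM in the controls and at 1425, 1445 and 1451 CPM with miR-19a. The groups were far apart, with a fold of 0.78 (log2 fold change -0.35, SE 0.035, adjusted p = 1.5e-13). AKR1B1 (chr7:134442350-134459284, minus strand), aldose reductase, stood at 2811, 2753 and 2404 CPM in the controls and at 1901, 1934 and 2099 CPM with miR-19a. It also fell in separate groups (fold 0.74, log2 fold change -0.43, SE 0.041, adjusted p = 3.0e-14), with the wider spread of 221 CPM (SD, n = 3) in the controls. CBR1, carbonyl reductase, fell by 0.35 (SE 0.044, adjusted p = 2.3e-10), with SETD4 on the opposite strand holding 9.2% as many counts. AKR1B10, which reduces retinal and lipid aldehydes, fell by 0.27 (SE 0.036, adjusted p = 3.2e-09). UGDH, which makes UDP-glucuronate for glucuronidation, fell by 0.20 (SE 0.04, adjusted p = 2.2e-05).

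The AKR1C enzymes, which reduce steroids and ketones, differed among themselves. AKR1C3 fell by 0.22 (SE 0.035, adjusted p = 1.9e-07), while AKR1C1 was at -0.03 (SE 0.045, adjusted p = 0.587) and AKR1C2 at 0.05 (SE 0.037, adjusted p = 0.304) on the same scale. Without control replicate 3 AKR1C1 passed (adjusted p = 0.0119). These genes are related copies whose similarity was not measured. No source used here says how the counting divided any shared reads, so the difference between them is uncertain. CYP4F11, a fatty acid hydroxylase, had 0.12 (SE 0.057, adjusted p = 0.0873), and passed without control replicate 2 (0.0281).

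**Figure D3:**
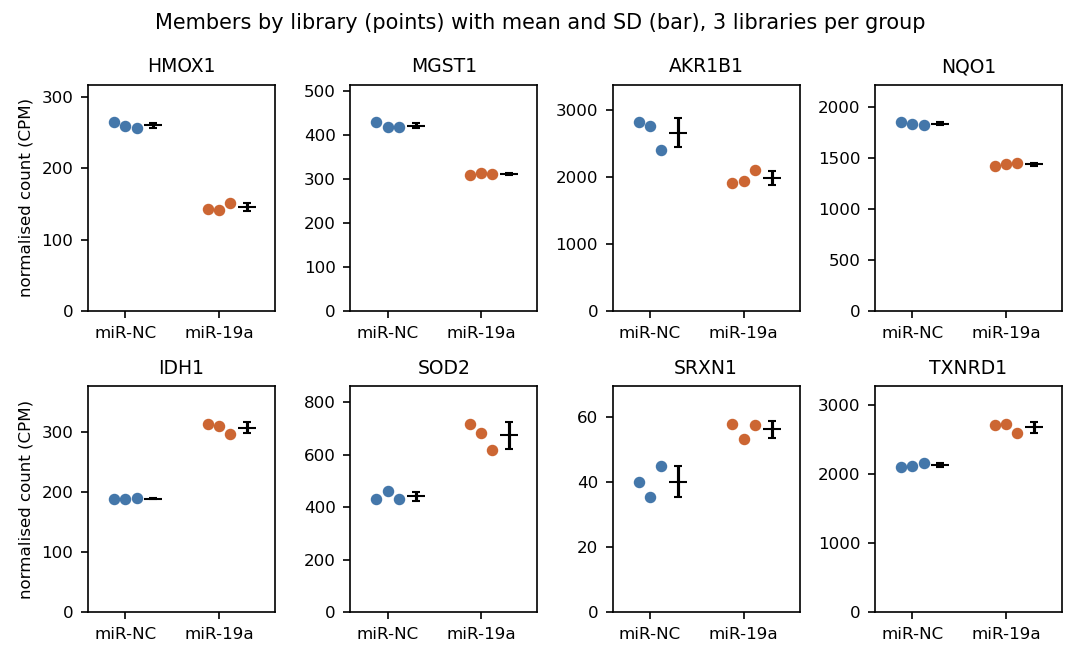
CPM in each of the 6 libraries for the 8 genes HMOX1, MGST1, AKR1B1, NQO1, IDH1, SOD2, SRXN1 and TXNRD1, as points, with the mean and SD of each group as a bar beside them. In all 8 panels the groups do not overlap, for example 1825 to 1852 CPM in the controls against 1425 to 1451 CPM with miR-19a for NQO1.

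NADPH feeds the glutathione and thioredoxin reductases. Of the 5 genes grouped under NADPH supply, not all of which make NADPH themselves, 2 rose, 1 fell and 2 did not pass (median 0.05). Here too, 24.9% of all genes tested rose and 23.5% fell. IDH1 (chr2:208236227-208266074, minus strand), the cytosolic isocitrate dehydrogenase, gave the largest rise of the list. It stood at 188.4, 188.9 and 189.8 CPM in the controls and at 313.7, 310.7 and 297.3 CPM with miR-19a. That is 62.5% higher (log2 fold change 0.70, SE 0.039, adjusted p = 5.5e-25), with SDs of 0.737 CPM in the controls and 8.72 CPM with miR-19a. ME1, cytosolic malic enzyme, rose by 0.24 (SE 0.047, adjusted p = 2.2e-05). TKT, transketolase of the non-oxidative pentose phosphate pathway, fell by 0.23 (SE 0.037, adjusted p = 3.5e-07). PGD, an NADPH-producing enzyme of the oxidative branch, had 0.03 (adjusted p = 0.546), and TALDO1 had 0.05 (adjusted p = 0.299).

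The largest fall of the list was in heme breakdown. HMOX1 (chr22:35380361-35394214, plus strand), heme oxygenase 1, which releases iron, carbon monoxide and biliverdin from heme, stood at 264.6, 259.0 and 256.7 CPM in the controls. With miR-19a it stood at 143.6, 142.2 and 152.0 CPM. This was 43.9% lower (log2 fold change -0.83, SE 0.04, adjusted p = 4.3e-28), and the groups, with SDs of 4.07 and 5.3 CPM, lay far apart. The ferritin transcripts had smaller fold changes. FTL, ferritin light chain, stood at 8416, 7534 and 7548 CPM in the controls and at 7236, 7195 and 7377 CPM with miR-19a (log2 fold change -0.11, SE 0.037, adjusted p = 0.0135). The call for FTL rested in part on control replicate 1: without it the log2 fold change was -0.05 and adjusted p = 0.323. It was also lost without miR-19a replicate 1 (adjusted p = 0.069) or replicate 2 (0.0853), and with limma on log2(FPKM + 1) (0.0872). FTH1, ferritin heavy chain, had -0.03 (SE 0.035, adjusted p = 0.538). The ratio of FTL to FTH1 in FPKM was 3.71 ± 0.267 in the controls and 3.51 ± 0.0527 with miR-19a (exact permutation p = 0.4). Processed pseudogenes of both ferritins were counted apart, with 25 for FTH1 holding 1.68% and 16 for FTL holding 0.63% of the counts of the parent gene.

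All 3 genes grouped under superoxide and hydrogen peroxide removal rose (median 0.19), where 24.9% of all genes tested rose. The peroxiredoxins and glutathione peroxidases, grouped above, did not all rise. SOD2 (chr6:159669057-159745186, minus strand), the mitochondrial manganese superoxide dismutase, stood at 431.1, 460.8 and 432.1 CPM in the controls and at 717.6, 684.1 and 618.7 CPM with miR-19a. It was 52.6% higher (log2 fold change 0.61, SE 0.04, adjusted p = 2.5e-21), with no overlap. WTAP, on the opposite strand, held 11.3% as many counts. SOD1, the cytosolic copper-zinc enzyme, rose by 0.18 (SE 0.04, adjusted p = 0.00016) and CAT, catalase, by 0.19 (SE 0.049, adjusted p = 0.00073). The ratio of SOD2 to SOD1 in FPKM went from 0.224 ± 0.0227 to 0.301 ± 0.0202, with no overlap (exact permutation p = 0.1, the smallest possible, and 0.2 adjusted over 4 ratios).

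By level per length, the list spans from ferritin to nearly nothing, though the level of PRDX2 at the low end is uncertain because of its overlap with HOOK2. In the controls FTL stood at 8894 FPKM, FTH1 at 2398, AKR1B10 at 1234, PRDX1 at 771 and NQO1 at 563, whereas NFE2L2 stood at 17.7, GSTM3 at 1.87 and PRDX2 at 0.243 FPKM. The 40 genes made up 5.6 ± 0.18% of all FPKM in the controls (SD, n = 3) and 5.37 ± 0.0616% with miR-19a, of which the 3 iron and heme genes alone made up 3.4% and 3.24%. The carbonyl, quinone and xenobiotic enzymes went from 1.0 ± 0.0325% to 0.849 ± 0.0235%, with no overlap between libraries. Glutathione use went from 0.177 ± 0.00546% to 0.207 ± 0.0068%. FPKM depends on the annotated length: the table implies 18.98 kb for SOD2 and 9.42 kb for AKR1C1, so their FPKM is low for their counts.

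**Figure D4:**
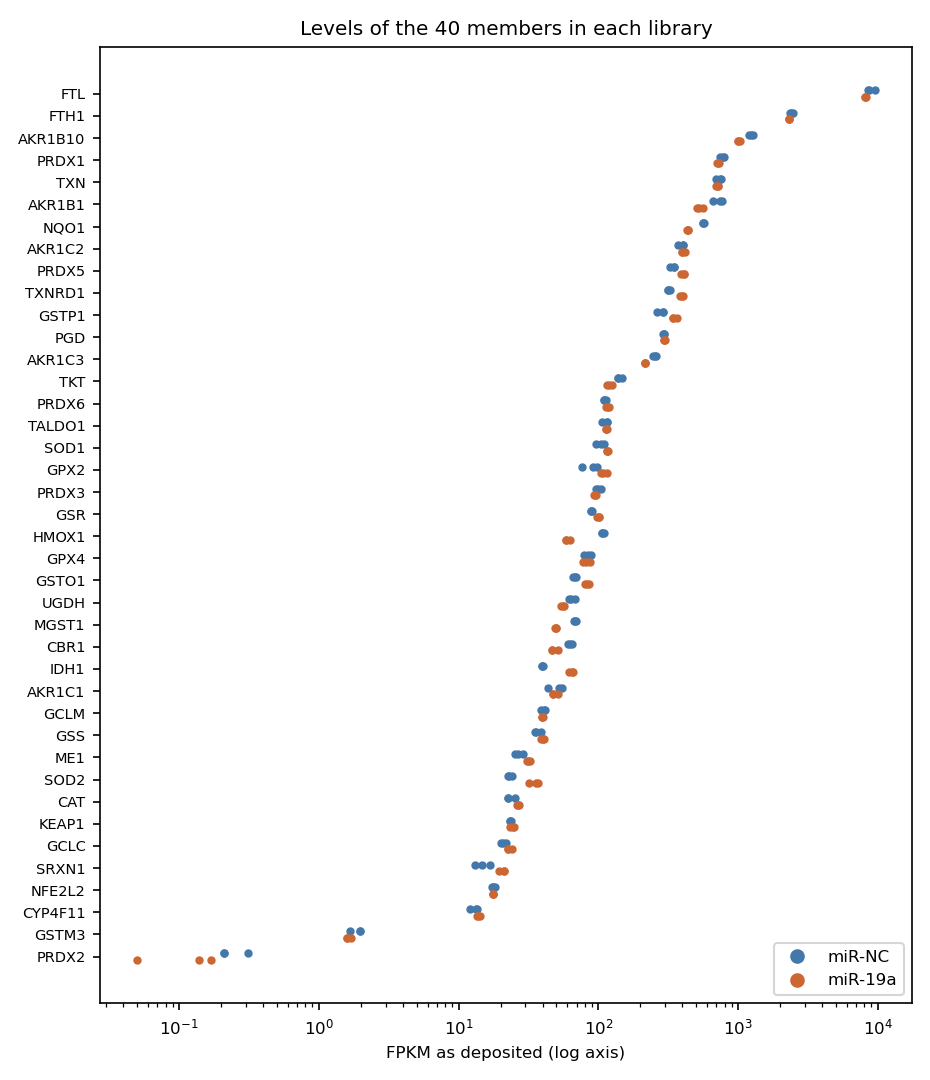
FPKM of the 40 genes on a log axis, ordered by level, with the 3 libraries of each group as points. The order runs from FTL at 8894 FPKM in the controls to PRDX2 at 0.243, and the points of the groups lie close to each other for most genes on this scale.

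Of the 5 genes of the list with a miR-19a site, 3 rose and 2 did not pass (CYP4F11 and GSTM3), and none fell. All 11 genes of the list that fell had no such site in the transcript with the longest coding sequence. Among all tested genes with a UTR the split ran the other way: 39.6% of those with a site fell and 21.7% rose, against 21.7% and 29.5% of those without a site. When the longest annotated UTR was used, 6 of the 40 genes had a site (22.1% of all genes), and CBR1, which fell, was the addition. A match to the seed is a description of the annotated sequence, and neither binding nor the UTR present in these cells was measured.

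Promoters were searched for the core of the antioxidant response element, TGACNNNGC, on both strands, in RefSeq windows (GRCh38.p14) from 250 bases before to 50 after the gene start. A window was found for 32 of the 40 genes, not for HMOX1, AKR1B10, SOD1, GSS, PRDX1, FTH1, GSR and PRDX6. Of the 32, 9 held the motif, against 13.6% of 27305 windows of all genes, and 6 held it followed by A, against 3.26%. Of these 9, 5 rose (ME1, GSTO1, GSTP1, TXNRD1 and GPX2), CBR1 fell, and PGD, GCLM and CYP4F11 did not pass. The 22 tested genes with a window and no motif split into 6 that rose, 7 that fell and 9 that did not pass. Over all genes tested 24.9% rose and 23.5% fell, but these were not split by the motif. Whether the motif goes with a direction was therefore not tested. The windows below are shown to let genes that rose, fell and did not pass be compared at the same core motif, given in capitals. In all but TXNRD1 it is followed by A, and GSTO1 and TXNRD1 each hold a further match that is not shown. Each window is written in the direction in which the motif reads, which is the minus strand for CBR1 and the plus strand for the others. GSTP1 (chr11:67583746-67583754), GPX2 (chr14:64942859-64942867), GSTO1 (chr10:104254666-104254674) and TXNRD1 (chr12:104215680-104215688) rose, CBR1 (chr21:36069865-36069873) fell, and GCLM (chr1:93909456-93909464) did not pass.
GSTP1: gccggcgccgTGACTCAGCactggggcgga
GPX2: atccccaggaTGACTTAGCaaaaacaggtc
GSTO1: ggcggagggaTGACTGAGCatttataactt
TXNRD1: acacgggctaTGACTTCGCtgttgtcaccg
CBR1: ccagctagccTGACTTTGCagaacccgcag
GCLM: tggaagacaaTGACTAAGCagaaatcgtag
The motif shown lies 66 bases before the start of GSTP1, 34 before that of GCLM and 99 before that of TXNRD1. A match is a description of the letters in the window, not of binding, and no match says nothing of elements outside it.

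Genes of the same pathways outside the 40 were also mixed. Over 6 other lists, 96 genes were listed and 84 tested, of which 29 rose, 25 fell and 30 did not pass (64.3% passed, median 0.02). Over all genes tested 48.4% passed, 24.9% higher and 23.5% lower, and the counts of each list below stand beside these shares. Among 17 tested of 18 other known NRF2 targets, 4 rose, 8 fell and 5 did not pass (median -0.1). ALDH3A1, an aldehyde dehydrogenase, stood at 3596, 3515 and 3430 CPM in the controls and at 1402, 1399 and 1537 CPM with miR-19a (log2 fold change -1.28, SE 0.037, adjusted p = 8.2e-40). Its fold of 0.41 was a larger fall than that of HMOX1, and it has no site. ABCC3, an efflux transporter of conjugates, fell by 0.96 (SE 0.04, adjusted p = 2.5e-31), and SLC7A11, the cystine importer that feeds glutathione synthesis, fell by 0.75 (SE 0.039, adjusted p = 1.4e-26). Both carry an 8mer. The rising genes with the smallest adjusted p were BLVRB, biliverdin reductase B, at 0.44 (SE 0.04), PTGR1 at 0.26 and the transporter ABCC2 at 0.20.

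Among 16 tested of 22 other glutathione genes, 6 rose, 4 fell and 6 did not pass (median 0.09). GPX3, the secreted peroxidase, rose by 0.92 (SE 0.069), GSTZ1 by 0.47 and GGCT by 0.38, while GPX1, the main cytosolic peroxidase, fell by 0.28. HAGH, with a fall of 0.17, lost its call without control replicate 1 (adjusted p = 0.13), and CHAC2, with a fall of 0.28, without control replicate 3 (0.0683) or miR-19a replicate 3 (0.0834). Of 15 tested of 17 other thiol redox genes, 6 rose, 3 fell and 6 did not pass (median 0.02). The sestrins SESN2 and SESN1 rose by 0.84 (SE 0.066) and 0.49, and TXN2, mitochondrial thioredoxin, by 0.35, while MSRB3, a methionine sulfoxide reductase with an 8mer, fell by 0.49 and GLRX, glutaredoxin, by 0.24. TXNRD2, with a fall of 0.20, lost its call with DESeq2 (adjusted p = 0.0501), with limma on log2(FPKM + 1) (0.0536), and without control replicate 1 (0.109) or miR-19a replicate 2 (0.111).

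For NADPH, 3 of 13 tested other genes rose, 6 fell and 4 did not pass (median -0.11, 14 listed). IDH2, the mitochondrial counterpart of IDH1, rose by 0.52 on the log2 scale (SE 0.061), so both isocitrate dehydrogenases named here rose. ME3 and ME2, mitochondrial malic enzymes, fell by 0.48 and 0.27, opposite in direction to ME1, and RPIA and PGLS rose by 0.33 and 0.25. Of 12 tested other iron and heme genes, 6 rose, 2 fell and 4 did not pass (median 0.11, 13 listed). TFRC, the transferrin receptor, rose by 0.39 and FLVCR1, a heme exporter, by 0.53, while STEAP3, a ferrireductase, fell by 0.34 and ACO1, iron regulatory protein 1, by 0.27 with an 8mer. Of the 11 tested genes of these 6 lists with a miR-19a site, 8 fell, 2 rose and 1 did not pass. Of all tested genes with a site, 39.6% fell and 21.7% rose.

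**Figure D5:**
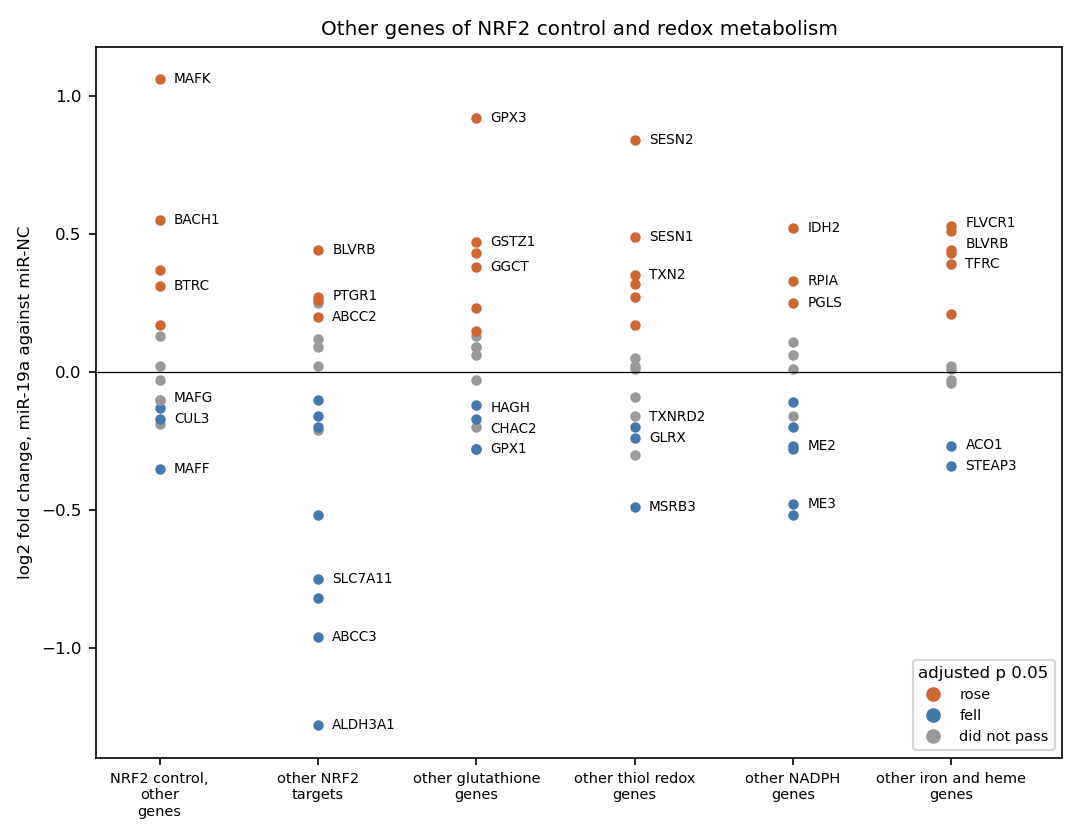
Log2 fold change (miR-19a minus miR-NC) of each tested gene of the 6 other lists, 1 strip a list, coloured by whether the gene rose, fell or did not pass, with a line at 0. Each list has genes on both sides of 0, from ALDH3A1 at -1.28 to MAFK at 1.06.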

How the data were processed

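Paired-end sequencing (150 nt) of poly(A)-selected RNA covered 6 A549 samples, per the labels' protocols. For demultiplexing, the submitters' processing notes name bcl2fastq 2.17.1.14. Aligner, counter, strand setting, annotation and build: not given in the sources used here. In 1 table the authors deposited whole-number counts that are not normalized. Its other columns hold FPKM, per the file headers, which the authors scaled for gene length and library total. Counts were tested as designed with edgeR 4.0.16 in R 4.3.3 (quasi-likelihood test, two-sided, TMM factors, Benjamini-Hochberg adjustment, threshold 0.05), over the 12452 genes whose FPKM averaged 1 or more. Each standard error was obtained by dividing the absolute log2 fold change by the root of the F statistic, and intervals are approximate. Ratios of FPKM were compared with exact permutation tests (scipy 1.17.1). Library totals were 15699037 to 17957932 counts, and the precision rests on 3 libraries per group. The count test was tested on simulated data, and no conclusion is drawn here from that run.

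The members and lists were chosen with earlier results of these data known. All 40 members are accounted for. NFE2L2, KEAP1, NQO1, HMOX1, GCLM, TXNRD1 and members past the threshold with a log2 change of at least 0.4 are given per library. Of each other list, at most 3 rising and 3 falling genes with the smallest adjusted p are named, and those changed by at least 1, and some items that this takes in are not reported here. COL1A1 was named after its values were seen. TXNIP, NCOA4 and PECAM1 were listed but matched no identifier. Gene coordinates and 3′ UTRs come from GENCODE v29 on GRCh38, matched by identifier, and miRNA and promoter sequences from RefSeq (GRCh38.p14). Alternatives were DESeq2 1.42.0, other scalings and filters, a replicate block, limma 3.58.1 on log2(FPKM + 1) and log2(FPKM + 0.1), and removal of each library.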

Additional observations from a re-analysis of the deposited data

How the results depend on the processing

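Of the 25 members called, 22 stayed called with the same sign in every alternative run, and GSS, PRDX1 and FTL did not. Genes changed numbered 6023, and 5186 with DESeq2, 5323 and 5308 with limma, 4070 of 7251 with a filter of 5 FPKM, 6235 of 28934 with no filter, and 5325 to 5784 when a library was removed, with 13 to 15 members that rose and 9 to 12 that fell. Library totals alone moved the median of all genes to -0.02. Whether replicate numbers pair the samples is unknown. Same-numbered samples had correlations of deviations of 0.008, 0.001 and -0.031. Counting noise adds to these deviations, so the values cannot exclude a pairing. With the replicate block 5986 genes changed, 14 members rose and 11 fell, so no call among the members depended on leaving that block out. Summed as shares of raw counts in place of FPKM, the difference (percentage points, miR-19a minus miR-NC) was 0.00698 in place of 0.0308 for glutathione use, 0.026 in place of 0.00958 for superoxide and hydrogen peroxide removal, and reversed to -0.00622 from 0.00861 for NADPH supply. Counts weigh long genes more. The filter on mean FPKM, absent from the run with no filter, kept PRDX2 out of the main test.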
